A study of Mus musculus with 12 samples.

Results

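The prostaglandin synthesis and receptor genes were examined for the accessibility of their chromatin in stromal cells of lymph nodes: the cyclooxygenases Ptgs1 and Ptgs2, prostacyclin synthase Ptgis, prostaglandin E synthase Ptges, the prostaglandin E2 receptors Ptger1, Ptger2, Ptger3 and Ptger4, the prostacyclin receptor Ptgir and the prostaglandin F receptor Ptgfr. A peak of accessible chromatin was counted to 1 of these 10 genes when the nearest transcription start site (TSS) of a protein-coding gene on GRCm38 was that gene's, which gave 55 of 42424 distinct peaks. ATAC-seq, which maps open DNA by where a transposase inserts adapters, had been performed on non-endothelial stromal cells (SC) sorted as CD45- CD24- CD31- Pdpn+ from adult wild-type BALB/c mice. The cells came from mesenteric lymph nodes, which drain the gut (mLN), or from peripheral ones that drain the skin (pLN, inguinal with axillary or popliteal nodes, which the labels call skin-draining mesenteric). Housing was specific pathogen-free (SPF) in one set of mice and germ-free (GF) in the other, and the 11 libraries with a measurement of their own made up 4 groups: 3 libraries of mLN-SPF, 3 of pLN-SPF, 3 of mLN-GF and 2 of pLN-GF. The study compared locations to ask what the draining site sets and compared housing to ask what the microbiota sets. Per the study's methods, the GF mice were derived by caesarean section at another institute than the one that bred the SPF mice and kept at either, the SPF BALB/c line named there is CD90.1, and the age ranges overlapped but were not the same, so housing cannot be told apart from colony. The labels do not say that the libraries came from separate animals, and all p-values measure only the spread between these libraries.

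Prostaglandins are lipid mediators made from arachidonic acid. Phospholipase releases the acid from membranes, the cyclooxygenases turn it into prostaglandin H2, and terminal synthases turn that into prostacyclin, prostaglandin E2 and the other prostanoids, which act on G protein-coupled receptors of the same or neighbouring cells. In lymph nodes, fibroblastic reticular SC are known as a source of prostaglandin E2 that restrains T cell responses.

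The peaks that differed between nodes lay away from the start sites, so the sequence at the centre of 5 of them is shown, 1 per gene in the order of their adjusted p in SPF mice. All are the plus strand of GRCm38.p6 (RefSeq), 5′ to 3′, and capitals mark matches on either strand to the letters of 8 transcription factor motifs: AP-1 (TGANTCA), CRE (TGACGTCA), TEAD (GGAATG), RUNX (TGTGGT), C/EBP (TTGCNNAA), NKX2 (TNAAGTG), GC box (GGGCGG) and CCAAT. The first, in an intron of Ptgs1, was chr2:36234785-36235084 and the next, in an intron of Ptgis, was chr2:167235385-167235684. Both were more accessible in mLN.
Ptgs1 +4.5 kb: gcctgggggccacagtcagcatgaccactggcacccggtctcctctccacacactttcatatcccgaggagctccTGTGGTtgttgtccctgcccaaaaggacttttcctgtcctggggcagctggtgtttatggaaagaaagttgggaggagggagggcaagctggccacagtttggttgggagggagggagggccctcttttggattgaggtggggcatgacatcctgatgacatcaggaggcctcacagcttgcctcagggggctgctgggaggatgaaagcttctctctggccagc
Ptgis +5.1 kb: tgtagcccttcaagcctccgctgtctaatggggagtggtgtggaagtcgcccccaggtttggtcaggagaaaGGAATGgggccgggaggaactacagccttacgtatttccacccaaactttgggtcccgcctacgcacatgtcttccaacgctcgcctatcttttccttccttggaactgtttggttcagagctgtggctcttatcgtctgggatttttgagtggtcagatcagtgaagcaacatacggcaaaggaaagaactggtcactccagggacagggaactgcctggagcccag
The Ptgs1 window held 1 RUNX match and the Ptgis window 1 TEAD match. The next pair, chr1:150164875-150165174 and chr3:157727392-157727691, was less accessible in mLN. The first of these held 1 TEAD match on the plus strand, and 1 CCAAT and 1 C/EBP match on the minus strand. The other held 1 RUNX match, on the minus strand.
Ptgs2 +64.7 kb: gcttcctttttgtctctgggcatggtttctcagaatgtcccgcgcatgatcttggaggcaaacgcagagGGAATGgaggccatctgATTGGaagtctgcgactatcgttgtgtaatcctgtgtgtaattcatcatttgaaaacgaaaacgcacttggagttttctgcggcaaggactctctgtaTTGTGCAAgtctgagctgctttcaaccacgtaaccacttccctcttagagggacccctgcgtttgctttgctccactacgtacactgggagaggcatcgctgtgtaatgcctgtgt
Ptger3 +160.6 kb: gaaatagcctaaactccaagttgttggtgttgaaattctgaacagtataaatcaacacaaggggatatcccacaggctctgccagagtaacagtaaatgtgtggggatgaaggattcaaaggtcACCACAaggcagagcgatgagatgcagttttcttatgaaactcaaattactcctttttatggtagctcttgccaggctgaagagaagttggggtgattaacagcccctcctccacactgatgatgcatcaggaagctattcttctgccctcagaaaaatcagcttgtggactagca
The last, chr15:5335868-5336167, was more accessible in mLN and held 1 C/EBP match, on the minus strand, and 2 AP-1 matches.
Ptger4 -91.8 kb: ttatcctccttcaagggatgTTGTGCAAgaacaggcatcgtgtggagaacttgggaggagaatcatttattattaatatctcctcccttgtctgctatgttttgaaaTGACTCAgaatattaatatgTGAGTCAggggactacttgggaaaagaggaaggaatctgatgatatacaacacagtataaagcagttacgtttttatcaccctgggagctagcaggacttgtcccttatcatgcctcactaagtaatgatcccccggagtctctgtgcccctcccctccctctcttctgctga
Counted over the central 300 bases of each peak, AP-1 letters were present in 32.7% of the 55 peaks, against 18.3% of the 42342 windows scanned, and in 39.1% of the 46 peaks outside promoters, against 24.1% of all such windows. Of the 14 peaks with a higher call in mLN in SPF or GF mice 7 held AP-1 letters, and 1 held C/EBP letters. Of the 9 with a lower call, 2 held AP-1 letters and 4 held C/EBP letters, which 18.6% of all windows outside promoters held. These counts are descriptions and name no factor that binds. The median GC content was 48% in these windows and 51.3% in all. No CRE letters were found in the 55 windows, against 1.29% of all windows.

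Most of the peaks were far from the genes they were counted to. Of the 55, 9 lay within 1 kb of a start site (promoter), 7 in introns and 39 between genes, and the median gap to the TSS was 44.8 kb, against 14.9 kb over all peaks. The share in promoters was 16.4%, against 30.1%. Ptger4 had 12 peaks, Ptgs1 10, Ptgs2 and Ptger2 6 each, Ptges, Ptger3 and Ptgfr 5 each, Ptgis 4, and Ptgir and Ptger1 1 each. Every gene but Ptgis had a promoter peak. In all, 16 peaks lay beyond 100 kb from the start site, of which 9 belonged to Ptger4, and a nearest TSS does not show that a peak acts on that gene. The map of peak positions shows where the differences between nodes lay.

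**Figure D1:**
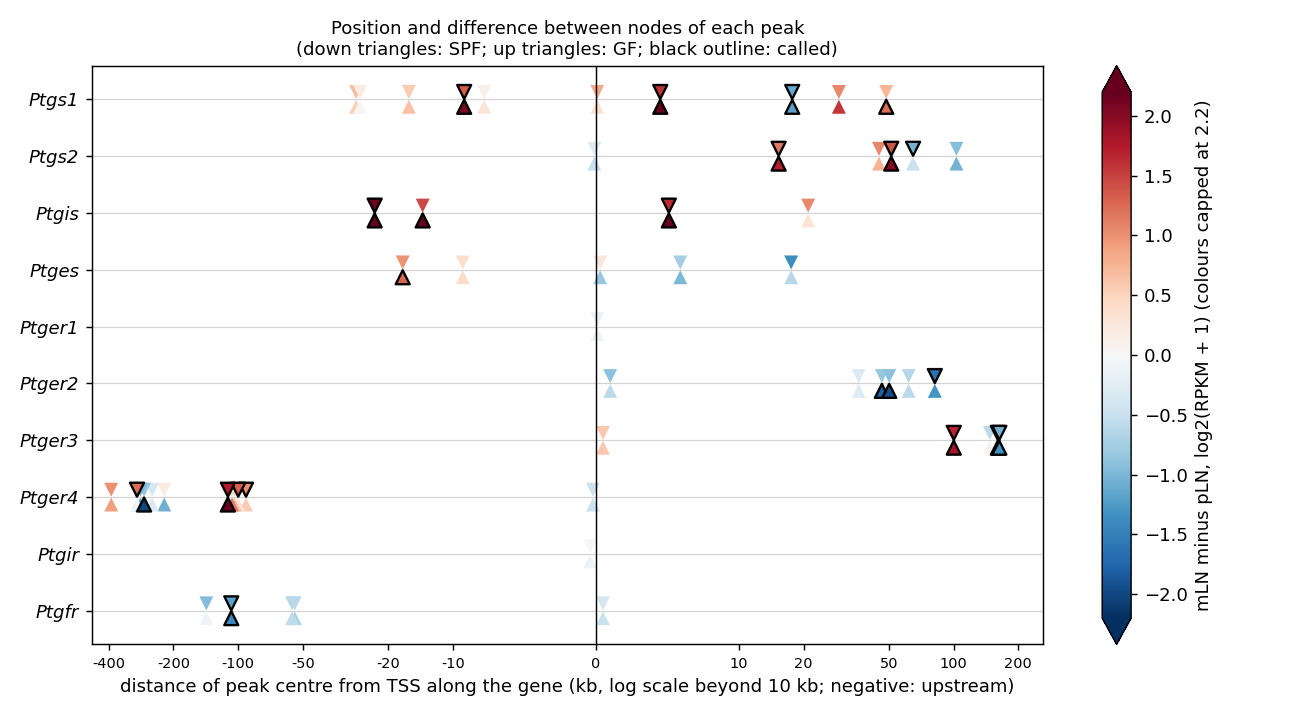
Position of the 55 peaks along the 10 genes (x axis, distance of the peak centre from the TSS in kb, logarithmic beyond 10 kb) and their difference between nodes (colour, log2(RPKM + 1), red higher in mLN, blue lower), with downward triangles for SPF and upward triangles for GF mice. The outlined, called peaks lie away from the start sites, all 4 peaks of Ptgis are red and all peaks of Ptger2 and Ptgfr are blue.

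Accessibility at the prostaglandin genes differed between mLN and pLN, and the differences ran both ways. In SPF mice 17 of the 55 peaks were called differentially accessible regions (DAR), 11 higher and 6 lower in mLN, which is 30.9% of them, beside 10.8 percent of all peaks called (6.49 percent higher and 4.27 percent lower). In GF mice 18 were called, 11 higher and 7 lower, which is 32.7%, beside 13.2 percent of all peaks (8.55 percent higher and 4.62 percent lower). DARs had an adjusted p under 0.05 in limma on log2(RPKM + 1), with Benjamini-Hochberg adjustment over all peaks, and a change of at least 2-fold, and log2 fold changes are given with their standard error. RPKM are reads in a peak divided by its length in kilobases and by the size of the library. The cells were sorted in bulk, so that a larger share of cells with an open site and a more open site in each cell cannot be told apart. The counts fell when single libraries were left out: in SPF mice to 10 or 8 without replicate 1 or replicate 3 of mLN-SPF and to 10 or 8 without replicate 1 or replicate 2 of pLN-SPF, and in GF mice to 9 or 6 without replicate 1 or replicate 3 of pLN-GF.

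The calls are given here for the enzymes and the receptors apart, whose difference was not tested. Of the 25 peaks at the 4 synthesis enzymes 6 were called higher and 2 lower in mLN in SPF mice, with a median log2 fold change of 0.75, and in GF mice 9 were higher and 1 lower, with a median of 0.54. Of the 30 peaks at the 6 receptors 5 were higher and 4 lower in SPF mice (median log2 fold change -0.43), and 2 were higher and 6 lower in GF mice (median -0.40). The median over all peaks was 0.00 in SPF and -0.01 in GF mice. None of the 9 promoter peaks was a DAR by limma in either housing, beside 1.46% of all promoter peaks in SPF and 1.71% in GF mice, whereas 17 of the 46 other peaks (37%) were DARs in SPF mice, beside 14.8% of all peaks outside promoters, and 18 (39.1%) in GF mice, beside 18.2%. At an unadjusted p under 0.05 there were 3 promoter peaks in SPF and 1 in GF mice (33.3% and 11.1%, beside 12.4% and 10.4% of all promoter peaks), and voom on recovered reads called 1 in SPF mice, that of Ptger2, and 0 in GF mice.

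Ptgs1, the cyclooxygenase that many cells make constitutively, was more accessible in mLN at an upstream and an intronic peak and less accessible at another intronic peak, in both housings. The intronic peak at +4.5 kb (chr2:36234595-36235275) held 39.4, 30.8 and 42.95 RPKM in mLN-SPF libraries, against 11.1, 9.98 and 14.4 RPKM in pLN-SPF libraries. In GF mice it held 40.7, 31.04 and 44.3 RPKM in mLN-GF, against 7.12 and 6.32 RPKM in pLN-GF. No mLN library came near a pLN library, and the log2 fold change was 1.60 ± 0.25, adjusted p = 0.0025 in SPF mice and 2.35 ± 0.28, adjusted p = 0.000307 in GF mice. Upstream, the peak at -9.2 kb (chr2:36221114-36221381) had 24.7, 24.04 and 30.2 RPKM in mLN-SPF libraries, against 11.4, 5.55 and 14.6 RPKM in pLN-SPF libraries. The same peak had 45.3, 20.9 and 42.9 RPKM in mLN-GF, against 9.74 and 5.89 RPKM in pLN-GF. It was likewise higher in mLN in both housings, with log2 fold changes of 1.33 ± 0.37, adjusted p = 0.0307 in SPF and 2.04 ± 0.42, adjusted p = 0.00551 in GF mice. An intronic peak at +17.7 kb (chr2:36248014-36248296) went the other way, with 14.4, 24.1 and 9.96 RPKM in mLN-SPF libraries, against 30.02, 28.9 and 47.4 RPKM in pLN-SPF libraries. Its GF values were 15.9, 12.1 and 15.2 RPKM in mLN-GF, against 30.3 and 38.02 RPKM in pLN-GF. All mLN libraries were below all pLN libraries there, with log2 fold changes of -1.13 ± 0.31, adjusted p = 0.0264 in SPF and -1.19 ± 0.35, adjusted p = 0.0315 in GF mice. Leaving out 1 library, named in brackets with the range of log2 fold changes over all 11 exclusions, ended the SPF call at +17.7 kb (mLN-SPF 1 or 3, pLN-SPF 1 or 2 or 3, -1.45 to -0.85), the SPF call at -9.2 kb (mLN-SPF 1 or 3, pLN-SPF 1 or 2, 0.97 to 1.59), the GF call at +17.7 kb (mLN-GF 1 or 2 or 3, pLN-GF 1 or 3, -1.35 to -1.03) and the GF call at -9.2 kb (pLN-GF 3, 1.72 to 2.39). The calls at +4.5 kb in SPF mice and at +4.5 kb in GF mice held in all 11 exclusions.

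Beyond the 3′ end of Ptgs1, the peak at +48.5 kb (chr2:36278805-36279147) held 24.95, 32.2 and 67.8 RPKM in mLN-SPF libraries, against 21.4, 17.03 and 29.5 RPKM in pLN-SPF libraries. Under GF conditions it held 76.2, 45.8 and 89.1 RPKM in mLN-GF, against 28.3 and 28.4 RPKM in pLN-GF. The groups overlapped in SPF mice, where the log2 fold change was 0.75 ± 0.33, adjusted p = 0.143, and they were apart in GF mice, where the peak was a DAR (1.23 ± 0.37, adjusted p = 0.0384). At the Ptgs1 promoter (chr2:36230392-36230679) there were 38.5, 36.4 and 50.2 RPKM in mLN-SPF libraries, against 33.5, 20.3 and 17.02 RPKM in pLN-SPF libraries. The promoter in GF mice had 30.2, 36.7 and 38.7 RPKM in mLN-GF, against 39.5 and 19.4 RPKM in pLN-GF. The SPF libraries did not overlap, yet neither difference passed the test, with log2 fold changes of 0.84 ± 0.28, adjusted p = 0.0622 in SPF and 0.32 ± 0.32, adjusted p = 0.545 in GF mice. Without pLN-SPF replicate 1 the promoter was called in SPF mice (1.11, adjusted p = 0.0376, in a range of 0.0376 to 0.354 over all alternatives). The other 5 Ptgs1 peaks were not called in either housing. Exclusion of single libraries removed the GF call at +48.5 kb (mLN-GF 1 or 3, pLN-SPF 1, pLN-GF 1 or 3, 1.03 to 1.51).

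Ptgs2, the cyclooxygenase induced by inflammatory signals, had a well-accessible promoter in every library and its DARs lay downstream, with Pla2g4a or Pdc as the next nearest gene. The promoter (chr1:150099479-150100369) held 49.1, 61.8 and 53.4 RPKM in mLN-SPF libraries, against 60.4, 72.96 and 68.97 RPKM in pLN-SPF libraries. GF libraries held 55.98, 58.6 and 55.5 RPKM in mLN-GF, against 80.2 and 82.1 RPKM in pLN-GF. In GF mice the log2 fold change of -0.51 ± 0.16, adjusted p = 0.041 passed on p but stayed under the 2-fold limit, and that of -0.30 ± 0.14, adjusted p = 0.171 in SPF mice did not pass. At +15.3 kb (chr1:150115408-150115895) the values were 32.3, 30.9 and 52.7 RPKM in mLN-SPF libraries, against 16.6, 14.4 and 17.4 RPKM in pLN-SPF libraries. In the GF libraries they were 24.3, 30.3 and 62.2 RPKM in mLN-GF, against 8.41 and 12.1 RPKM in pLN-GF. Every mLN library exceeded every pLN library, although mLN-SPF replicate 3 and mLN-GF replicate 3 were well above the others of their groups, and the log2 fold changes were 1.17 ± 0.33, adjusted p = 0.0291 in SPF and 1.73 ± 0.36, adjusted p = 0.00635 in GF mice. A short peak at +51.2 kb (chr1:150151375-150151605) held 21.9, 28.7 and 25.9 RPKM in mLN-SPF libraries, against 6.61, 15.2 and 7.07 RPKM in pLN-SPF libraries. With GF housing it held 23.99, 15.5 and 31.9 RPKM in mLN-GF, against 6.46 and 3.73 RPKM in pLN-GF. It too was higher in mLN, with log2 fold changes of 1.40 ± 0.37, adjusted p = 0.0241 in SPF and 2.01 ± 0.42, adjusted p = 0.00596 in GF mice. Further downstream, the peak at +64.7 kb (chr1:150164621-150165429) was lower in mLN, with 16.8, 27.3 and 25.7 RPKM in mLN-SPF libraries, against 48.3, 44.4 and 50.9 RPKM in pLN-SPF libraries. For GF mice the values were 45.3, 36.1 and 31.1 RPKM in mLN-GF, against 53.9 and 50.9 RPKM in pLN-GF. The difference was -1.04 ± 0.21, adjusted p = 0.00661 in SPF mice and did not pass in GF mice (-0.49 ± 0.23, adjusted p = 0.173), where the mLN libraries were nearer to the pLN libraries without reaching them. When 1 library was left out, the test lost the SPF call at +64.7 kb (mLN-SPF 1, pLN-SPF 3, -1.16 to -0.83), the SPF call at +51.2 kb (mLN-SPF 1 or 2 or 3, pLN-SPF 1 or 3, 1.21 to 1.75), the SPF call at +15.3 kb (mLN-SPF 1 or 3, pLN-SPF 1 or 2, 0.93 to 1.31), the GF call at +51.2 kb (pLN-GF 3, 1.68 to 2.33) and the GF call at +15.3 kb (pLN-GF 1, 1.34 to 2.004).

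Ptgis, which converts prostaglandin H2 to prostacyclin, had the largest differences of the 10 genes, and all 4 of its peaks were higher in mLN on average in both housings, with log2 fold changes from 1.07 to 2.15 in SPF and from 0.31 to 3.30 in GF mice. Its intronic peak at +5.1 kb (chr2:167235290-167235781) held 77.9, 37.04 and 55.9 RPKM in mLN-SPF libraries, against 19.98, 11.2 and 20.6 RPKM in pLN-SPF libraries. In GF nodes this peak held 90.6, 68.2 and 67.6 RPKM in mLN-GF, against 6.44 and 8.17 RPKM in pLN-GF. The lowest mLN library was above the highest pLN library by a wide margin, and the log2 fold changes were 1.65 ± 0.29, adjusted p = 0.00363 in SPF and 3.20 ± 0.32, adjusted p = 0.000176 in GF mice. Upstream at -23.1 kb (chr2:167263438-167263928) there were 32.1, 22.5 and 38.8 RPKM in mLN-SPF libraries, against 3.89, 4.33 and 12.6 RPKM in pLN-SPF libraries. The GF counterparts were 39.2, 31.02 and 40.3 RPKM in mLN-GF, against 6.08 and 4.09 RPKM in pLN-GF. The mLN values again lay apart from the pLN values, with 2.15 ± 0.39, adjusted p = 0.00431 in SPF and 2.65 ± 0.43, adjusted p = 0.0015 in GF mice. Between these, the short peak at -13.8 kb (chr2:167254315-167254481) held 29.1, 11.02 and 33.8 RPKM in mLN-SPF libraries, against 6.86, 6.36 and 9.79 RPKM in pLN-SPF libraries. The GF values there were 22.1, 18.6 and 25.8 RPKM in mLN-GF, against 4.47 and 0 RPKM in pLN-GF. The 0 in pLN-GF replicate 3 stands for 0 reads, which allows up to 2.58 RPKM at 3 reads, counting error only. The difference was called in GF mice (3.30 ± 0.62, adjusted p = 0.00345) and not in SPF mice (1.44 ± 0.56, adjusted p = 0.0964). Without 1 library, the test lost the GF call at -13.8 kb (pLN-GF 3, 2.07 to 4.52). The calls at +5.1 kb in SPF mice, at -23.1 kb in SPF mice, at +5.1 kb in GF mice and at -23.1 kb in GF mice held in all 11 exclusions.

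Ptges, the inducible terminal synthase of prostaglandin E2, was little accessible at its promoter. The promoter (chr2:30902730-30903197) held 14.96, 9.05 and 10.5 RPKM in mLN-SPF libraries, against 7.14, 5.90 and 18.9 RPKM in pLN-SPF libraries. GF values were 9.02, 10.6 and 3.07 RPKM in mLN-GF, against 12.8 and 13.2 RPKM in pLN-GF. The groups overlapped in SPF mice, and the differences of 0.24 ± 0.48, adjusted p = 0.779 in SPF and -0.84 ± 0.54, adjusted p = 0.332 in GF mice had 95% intervals of -0.79 to 1.28 and -2.00 to 0.32. A peak at -17.1 kb (chr2:30920254-30920450), within an intron of the annotated gene but upstream of its nearest protein-coding start, held 46.4, 28.03 and 19.7 RPKM in mLN-SPF libraries, against 15.5, 8.63 and 21.6 RPKM in pLN-SPF libraries. Without microbiota it held 29.5, 35.5 and 42.9 RPKM in mLN-GF, against 12.3 and 16.02 RPKM in pLN-GF. It was a DAR in GF mice (1.28 ± 0.39, adjusted p = 0.0388) and missed the threshold in SPF mice (1.00 ± 0.35, adjusted p = 0.0685), where 1 mLN library fell among the pLN libraries. Exclusion of 1 library ended the GF call at -17.1 kb (mLN-GF 1 or 2 or 3, pLN-SPF 1, pLN-GF 1 or 3, 1.10 to 1.46).

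**Figure D2:**
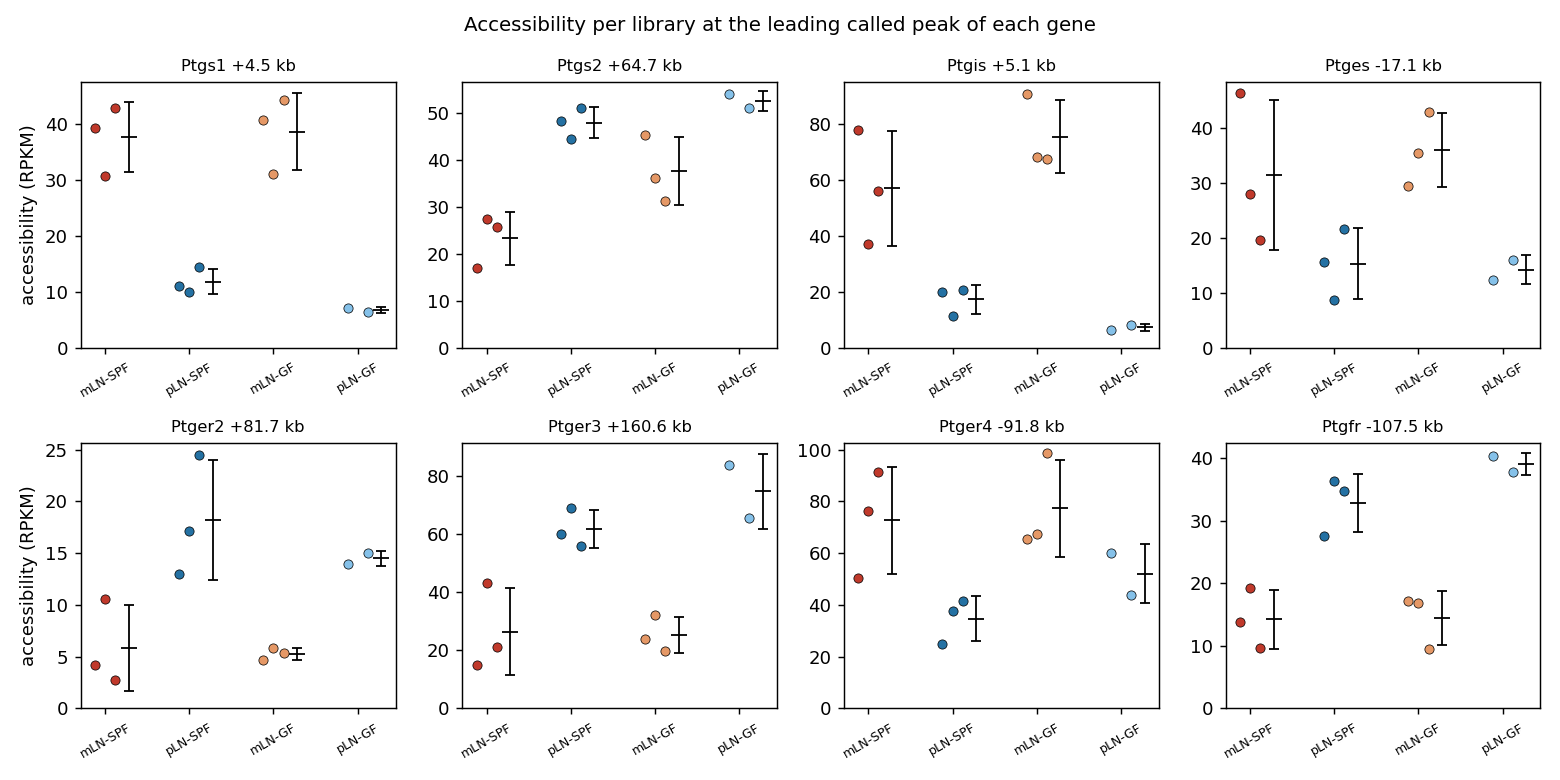
RPKM per library (points) with mean and SD (bars) in the 4 groups, at the called peak with the lowest adjusted p in SPF mice of each gene (for Ptges, in GF mice). At Ptgs1 +4.5 kb the mLN libraries sit between 30.8 and 44.3 RPKM and the pLN libraries between 6.32 and 14.4, while the Ptgs2, Ptger2, Ptger3 and Ptgfr peaks are lower in mLN.

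Of the prostaglandin E2 receptors, Ptger2, which raises cAMP, had negative log2 fold changes at all 6 peaks, from -1.61 to -0.34 in SPF and from -1.96 to -0.28 in GF mice, of which 1 was a DAR in SPF and 2 were in GF mice. The most distant peak, at +81.7 kb (chr14:45069618-45070124), held 4.22, 10.5 and 2.78 RPKM in mLN-SPF libraries, against 12.99, 17.2 and 24.5 RPKM in pLN-SPF libraries. In germ-free nodes it held 4.68, 5.82 and 5.32 RPKM in mLN-GF, against 13.98 and 14.999 RPKM in pLN-GF. It fell in mLN-SPF (-1.61 ± 0.43, adjusted p = 0.0248), and in GF mice the libraries did not overlap either but the test did not pass (-1.31 ± 0.48, adjusted p = 0.0832). Another peak at +46.3 kb (chr14:45034332-45034649) showed 23.9, 33.6 and 29.9 RPKM in mLN-SPF libraries, against 48.3, 52.1 and 56.5 RPKM in pLN-SPF libraries. Its values in GF mice were 19.1, 30.3 and 14.1 RPKM in mLN-GF, against 92.1 and 58.7 RPKM in pLN-GF. The difference was -1.81 ± 0.29, adjusted p = 0.00126 in GF mice, and -0.83 ± 0.26, adjusted p = 0.0424 in SPF mice passed on p but not on the 2-fold limit. Close by, at +50.1 kb (chr14:45038179-45038353), there were 12.2, 17.9 and 8.05 RPKM in mLN-SPF libraries, against 23.5, 21.2 and 26.1 RPKM in pLN-SPF libraries. GF nodes had 12.1, 16.9 and 2.05 RPKM in mLN-GF, against 39.4 and 28.7 RPKM in pLN-GF. Here mLN-GF replicate 3 was below the other mLN libraries, but with only 2 reads in this peak of 175 bases. The peak was called in GF mice (-1.96 ± 0.58, adjusted p = 0.0351) and not in SPF mice (-0.90 ± 0.52, adjusted p = 0.265). The broad promoter peak (chr14:44988437-44989962) had 11.6, 8.81 and 14.8 RPKM in mLN-SPF libraries, against 22.1, 24.4 and 20.8 RPKM in pLN-SPF libraries. For the GF groups it had 17.5, 18.7 and 13.5 RPKM in mLN-GF, against 26.5 and 23.9 RPKM in pLN-GF. No library of one node overlapped the other node, and the SPF difference of -0.90 ± 0.27, adjusted p = 0.0361 passed on p with less than 2-fold change, which the GF difference of -0.59 ± 0.30, adjusted p = 0.208 did not. The promoter was called in SPF mice by voom (-1.03, adjusted p = 0.00147) and without mLN-SPF replicate 3 (-1.07, adjusted p = 0.0381), in a range of 0.00147 to 0.132 over all alternatives. Single exclusions ended the SPF call at +81.7 kb (mLN-SPF 1 or 3, pLN-SPF 2 or 3, -2.07 to -1.27) and the GF call at +50.1 kb (mLN-GF 3, pLN-GF 1 or 3, -2.46 to -1.18). The call at +46.3 kb in GF mice held in all 11 exclusions.

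Ptger3, the prostaglandin E2 receptor known mainly to lower cAMP, had DARs of both directions far downstream of its start site. The short peak at +100.1 kb (chr3:157666958-157667067) held 35.4, 36.8 and 16.02 RPKM in mLN-SPF libraries, against 8.68, 9.66 and 5.94 RPKM in pLN-SPF libraries. Its GF libraries held 33.6, 22.6 and 26.1 RPKM in mLN-GF, against 11.9 and 3.91 RPKM in pLN-GF. It was higher in mLN, with log2 fold changes of 1.68 ± 0.40, adjusted p = 0.0155 in SPF and 1.82 ± 0.45, adjusted p = 0.0154 in GF mice. The lowest values rest on few reads, 2 in pLN-SPF replicate 3 and 3 in pLN-GF replicate 3. Further out, at +160.6 kb (chr3:157727064-157728021), the order was the opposite, with 15.03, 43.2 and 20.97 RPKM in mLN-SPF libraries, against 60.1, 68.97 and 55.95 RPKM in pLN-SPF libraries. In GF mice there were 23.96, 31.96 and 19.7 RPKM in mLN-GF, against 83.7 and 65.6 RPKM in pLN-GF. The mLN libraries were all below the pLN libraries, with log2 fold changes of -1.32 ± 0.30, adjusted p = 0.0119 in SPF and -1.55 ± 0.34, adjusted p = 0.00771 in GF mice. Its neighbour at +163.2 kb (chr3:157729800-157730449) held 16.8, 29.7 and 15.2 RPKM in mLN-SPF libraries, against 38.5, 49.03 and 37.7 RPKM in pLN-SPF libraries. The GF libraries there held 19.9, 14.3 and 8.57 RPKM in mLN-GF, against 40.5 and 32.01 RPKM in pLN-GF. It moved the same way, with -1.04 ± 0.31, adjusted p = 0.0387 in SPF and -1.35 ± 0.35, adjusted p = 0.0184 in GF mice. At the Ptger3 promoter (chr3:157566768-157568040) the values were 11.8, 15.2 and 32.9 RPKM in mLN-SPF libraries, against 10.6, 8.51 and 17.7 RPKM in pLN-SPF libraries. In GF groups the promoter held 21.6, 17.1 and 18.6 RPKM in mLN-GF, against 14.9 and 10.03 RPKM in pLN-GF. mLN-SPF replicate 3 was well above the other mLN-SPF libraries, and the differences of 0.59 ± 0.38, adjusted p = 0.329 in SPF and 0.59 ± 0.43, adjusted p = 0.394 in GF mice did not pass. With 1 library fewer, the test lost the SPF call at +160.6 kb (pLN-SPF 2, -1.73 to -1.002), the SPF call at +100.1 kb (mLN-SPF 1, 1.48 to 2.05), the SPF call at +163.2 kb (mLN-SPF 1 or 3, pLN-SPF 1 or 2 or 3, pLN-GF 1 or 3, -1.32 to -0.86), the GF call at +160.6 kb (pLN-GF 1, -1.72 to -1.37), the GF call at +100.1 kb (mLN-GF 1, pLN-GF 3, 1.13 to 2.52) and the GF call at +163.2 kb (mLN-GF 3, pLN-GF 1 or 3, -1.61 to -1.05).

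Ptger4, the other cAMP-raising receptor, had a group of 5 peaks between -91.8 and -111.5 kb with positive log2 fold changes in both housings, of which 3 were DARs in SPF and 1 in GF mice, and a second, more distant group with both signs. The nearest, at -91.8 kb (chr15:5335795-5336241), held 50.5, 76.2 and 91.5 RPKM in mLN-SPF libraries, against 24.8, 37.5 and 41.7 RPKM in pLN-SPF libraries. GF libraries at this peak held 65.5, 67.5 and 98.9 RPKM in mLN-GF, against 60.1 and 43.97 RPKM in pLN-GF. The libraries did not overlap in either housing, with a call in SPF mice (1.04 ± 0.25, adjusted p = 0.0154) and none in GF mice (0.55 ± 0.28, adjusted p = 0.207). At -99.8 kb (chr15:5343879-5344138) there were 44.9, 46.02 and 46.1 RPKM in mLN-SPF libraries, against 26.4, 31.5 and 6.29 RPKM in pLN-SPF libraries. The GF groups had 44.7, 47.2 and 54.6 RPKM in mLN-GF, against 40.2 and 38.1 RPKM in pLN-GF. The SPF difference (1.32 ± 0.40, adjusted p = 0.0393) was 0.65 without pLN-SPF replicate 3, which was far below the other pLN libraries, and the GF difference was 0.31 ± 0.44, adjusted p = 0.7. The peak at -111.5 kb (chr15:5355538-5355747) held 14.8, 14.9 and 30.2 RPKM in mLN-SPF libraries, against 3.64, 2.53 and 12.5 RPKM in pLN-SPF libraries. It held 32.7, 25.2 and 29.9 RPKM in mLN-GF, against 6.22 and 4.78 RPKM in pLN-GF. This peak was called in both housings (1.72 ± 0.46, adjusted p = 0.0247 in SPF and 2.22 ± 0.52, adjusted p = 0.0108 in GF mice). Of these calls, exclusion of 1 library ended the SPF call at -91.8 kb (mLN-SPF 2 or 3, pLN-SPF 1, 0.82 to 1.28), the SPF call at -111.5 kb (mLN-SPF 3, pLN-SPF 1 or 2, 1.33 to 2.30), the SPF call at -99.8 kb (mLN-SPF 1 or 2 or 3, mLN-GF 2, pLN-SPF 3, pLN-GF 1 or 3, 0.65 to 1.72) and the GF call at -111.5 kb (pLN-GF 1 or 3, 2.06 to 2.38).

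In the distant group, the Ptger4 peak at -295.5 kb (chr15:5539456-5539840) held 13.1, 19.6 and 17.4 RPKM in mLN-SPF libraries, against 5.70, 4.14 and 11.04 RPKM in pLN-SPF libraries. Its values in GF nodes were 25.4, 23.4 and 16.8 RPKM in mLN-GF, against 23.7 and 23.9 RPKM in pLN-GF. It was a DAR in SPF mice (1.23 ± 0.34, adjusted p = 0.0287), whereas the GF groups overlapped (-0.14 ± 0.38, adjusted p = 0.857), with the pLN-GF libraries at the mLN level. Of the same group, the peak at -274.0 kb, the fifth called Ptger4 peak and named after its values were seen, was lower in mLN-GF than in pLN-GF (-2.01 ± 0.51, adjusted p = 0.0164). This peak, 107 bases wide, held 9.86, 11.6 and 5.04 RPKM in mLN-GF libraries, from only 4, 8 and 3 reads. The pLN-GF libraries held 34.9 and 38.9 RPKM. It was not called in SPF mice (-0.86 ± 0.45, adjusted p = 0.221), and its GF call was not followed over the exclusions of libraries. The Ptger4 promoter (chr15:5243820-5244884) held 43.7, 61.01 and 41.7 RPKM in mLN-SPF libraries, against 85.6, 74.2 and 47.3 RPKM in pLN-SPF libraries. In GF mice the promoter had 53.8, 50.1 and 46.2 RPKM in mLN-GF, against 74.2 and 65.1 RPKM in pLN-GF. The differences of -0.47 ± 0.21, adjusted p = 0.15 in SPF and -0.47 ± 0.24, adjusted p = 0.202 in GF mice did not pass. Exclusion of single libraries removed the SPF call at -295.5 kb (mLN-SPF 2 or 3, pLN-SPF 1 or 2, 0.96 to 1.58).

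Ptgfr, the receptor of prostaglandin F2 alpha, had negative values at all 5 peaks, from -1.19 to -0.39 in SPF and from -1.41 to -0.08 in GF mice on the log2 scale. The called peak, at -107.5 kb (chr3:151944882-151945390), held 13.8, 19.2 and 9.69 RPKM in mLN-SPF libraries, against 27.6, 36.3 and 34.7 RPKM in pLN-SPF libraries. GF mice had 17.1, 16.8 and 9.53 RPKM in mLN-GF, against 40.3 and 37.8 RPKM in pLN-GF. The groups were well apart in both housings (-1.19 ± 0.29, adjusted p = 0.0164 in SPF and -1.41 ± 0.33, adjusted p = 0.0105 in GF mice). The most accessible of the 55 peaks on average, at -54.4 kb (chr3:151891706-151892340), held 73.8, 101.5 and 87.1 RPKM in mLN-SPF libraries, against 126, 139 and 130.2 RPKM in pLN-SPF libraries. In the GF nodes there were 77.3, 88.6 and 76.97 RPKM in mLN-GF, against 138 and 127 RPKM in pLN-GF. The libraries were separate in both housings and the differences passed on p but not on the 2-fold limit, with -0.60 ± 0.14, adjusted p = 0.0151 in SPF and -0.70 ± 0.16, adjusted p = 0.00978 in GF mice, and the peak was picked for its level after the values were seen. The Ptgfr promoter (chr3:151836701-151837588) held 23.002, 27.6 and 32.9 RPKM in mLN-SPF libraries, against 32.7, 33.5 and 43.8 RPKM in pLN-SPF libraries. Under germ-free housing it held 36.3, 29.8 and 20.6 RPKM in mLN-GF, against 41.6 and 37.97 RPKM in pLN-GF. Its differences did not pass (-0.39 ± 0.23, adjusted p = 0.277 in SPF and -0.48 ± 0.25, adjusted p = 0.227 in GF mice). Single-library exclusions ended the SPF call at -107.5 kb (mLN-SPF 3, pLN-SPF 2, -1.42 to -0.96) and the GF call at -107.5 kb (pLN-GF 1 or 3, -1.55 to -1.16).

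Ptgir and Ptger1 had their promoter peak alone, and neither passed the test. The promoter of Ptgir (chr7:16905510-16906725), the receptor for prostacyclin, held 55.7, 55.9 and 45.8 RPKM in mLN-SPF libraries, against 55.2, 50.8 and 54.6 RPKM in pLN-SPF libraries. GF nodes held 52.5, 51.6 and 38.7 RPKM in mLN-GF, against 46.9 and 56.99 RPKM in pLN-GF. The log2 fold changes were -0.03 (95% interval -0.39 to 0.32) in SPF and -0.13 (-0.52 to 0.26) in GF mice, so that 2-fold changes lay outside both intervals. The peak at Ptger1 (chr8:83666504-83667106), a receptor that signals through calcium, held 31.3, 38.8 and 29.2 RPKM in mLN-SPF libraries, against 39.9, 36.99 and 30.9 RPKM in pLN-SPF libraries. For GF mice it held 32.8, 44.1 and 31.6 RPKM in mLN-GF, against 36.2 and 40.2 RPKM in pLN-GF. Here too the intervals, -0.53 to 0.29 in SPF and -0.55 to 0.37 in GF mice, were narrower than 2-fold, and all groups overlapped.

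**Figure D3:**
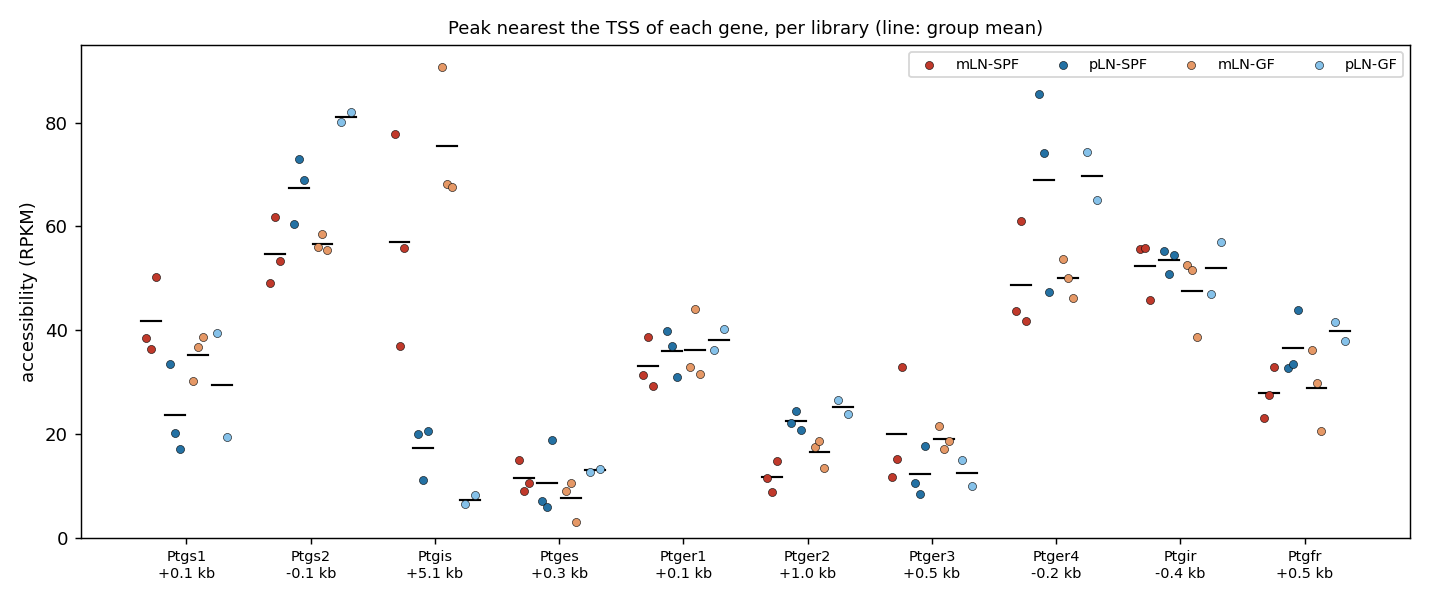
RPKM per library (points, line for the group mean) at the peak nearest the TSS of each gene, in the 4 groups. Apart from the intronic Ptgis peak, which spans 6.44 to 90.6 RPKM over the libraries, the means of the mLN and pLN groups of one housing differ by less than 2-fold, and none of the 9 promoter peaks was called by limma over all 11 libraries.

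Promoter levels in RPKM, which are per kilobase, differed among the genes. The promoter peaks were 288 (Ptgs1) to 1526 bases (Ptger2) wide, and the part of peak width in the order given here was not tested. Over the 11 libraries the promoters of Ptgs2, Ptger4 and Ptgir were the most accessible, with group means from 54.8 to 81.1 RPKM, from 48.8 to 69.7 RPKM and from 47.6 to 53.5 RPKM. Those of Ptger1, Ptgs1 and Ptgfr followed, with group means from 33.1 to 38.2, from 23.6 to 41.7 and from 27.8 to 39.8 RPKM. The lowest were Ptger2 (11.7 to 25.2 RPKM), Ptger3 (12.3 to 19.96 RPKM) and Ptges (7.57 to 12.97 RPKM). Neighbours in this order overlapped in their libraries.

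The location differences in SPF and GF mice rest on separate libraries, which share only the estimate of spread. Of the 55 peaks, 51 had the same sign in both housings (92.7%, beside 79.5% of all peaks), and 12 were DARs in both, always in the same direction, which is 70.6% of the 17 in SPF mice and 66.7% of the 18 in GF mice, beside 67.6% and 55.3% of the DARs over all peaks. These 12 belonged to Ptgis (2), Ptgs1 (3), Ptgs2 (2), Ptger3 (3), Ptger4 (1) and Ptgfr (1). The mLN and pLN libraries did not overlap at 32 of the 55 peaks in SPF mice, beside 14042 of all 42424 peaks (33.1 percent). In GF mice they did not overlap at 44 of the 55, beside 20691 of all 42424 (48.8 percent). The share among the 55 peaks was the larger in both housings. Promoters made up 16.4% of these peaks and 30.1% of all peaks, and the part of this in the larger share was not tested. Across the 55 peaks, the SPF and GF log2 fold changes correlated with r = 0.876, and across all peaks with r = 0.826. Peaks are not independent replicates, since several belong to 1 gene.

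**Figure D4:**
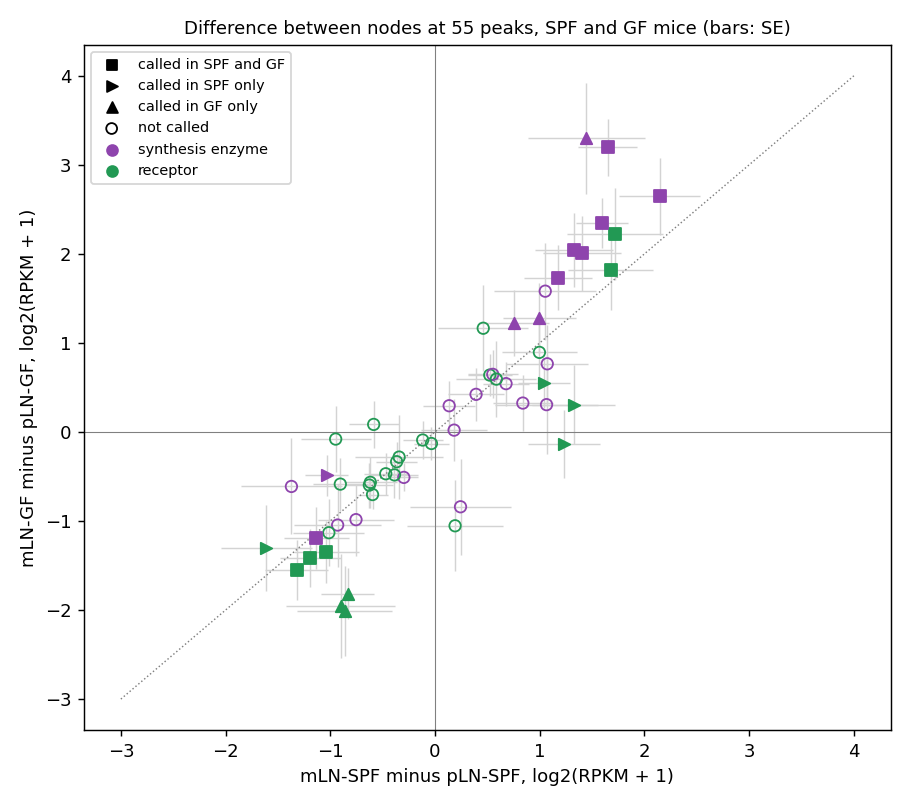
Log2 fold change between nodes in SPF (x axis) and GF mice (y axis) on log2(RPKM + 1) at the 55 peaks, with SE bars, the line of equality dotted, enzymes in purple and receptors in green, filled where called. Of the 55 peaks 51 lie in the quadrants of equal sign, and the enzyme peaks called in both housings that are higher in mLN lie above the line.

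Housing changed none of these peaks past the test. SPF and GF mice were compared within each node: in mLN 0 of 55 peaks were DARs by limma, beside 0.00236 percent of all peaks, and in pLN 0, beside 0.00707 percent. At an unadjusted p under 0.05 there were 2 in mLN (3.64%, beside 8.11% of all peaks) and 6 in pLN (10.9%, beside 6.21%), and limma voom on recovered reads called 0 and 1. That 1 was Ptger4 -295.5 kb, with 5.70, 4.14 and 11.04 RPKM in pLN-SPF libraries, against 23.7 and 23.9 RPKM in pLN-GF libraries, a log2 fold change of -1.73 ± 0.38, adjusted p = 0.248 by limma and of -2.06 with adjusted p = 0.0223 by voom (0.0223 to 0.827 over all alternatives). Ptgis +5.1 kb had 19.98, 11.2 and 20.6 RPKM in pLN-SPF libraries, against 6.44 and 8.17 RPKM in pLN-GF libraries, a log2 fold change of 1.10 ± 0.32, adjusted p = 0.467. In mLN the lowest unadjusted p was at Ptgs2 +64.7 kb, with 16.8, 27.3 and 25.7 RPKM in mLN-SPF libraries, against 45.3, 36.1 and 31.1 RPKM in mLN-GF libraries, a log2 fold change of -0.68 ± 0.21, adjusted p = 0.454. The median standard error of these log2 fold changes was 0.33 in mLN and 0.36 in pLN, and the 95% intervals reached 0.70 and 0.78 to either side at the median.

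The difference between nodes was not shown to depend on housing at any of the 55 peaks: by limma, the interaction was called at 0, beside 0 percent of all peaks, at 4 with an unadjusted p under 0.05 (7.27%, beside 3.5% of all peaks) and at 0 with voom. The location differences at Ptgis +5.1 kb, which were 1.65 in SPF and 3.20 in GF mice, had an interaction of -1.55 ± 0.43, adjusted p = 1. At Ptger4 -295.5 kb it was 1.37 ± 0.51, adjusted p = 1.

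Other genes of prostanoid supply, transport and removal also differed between nodes in both directions. Of 18 listed genes 16 had 53 peaks, of which 9 were DARs in SPF mice, 5 higher and 4 lower in mLN. That is 17%, beside 10.8 percent of all peaks. In GF mice 12 were DARs, 6 higher and 6 lower, which is 22.6%, beside 13.2 percent of all peaks. None was called for housing or the interaction. Pla2g4a, the cytosolic phospholipase A2 that releases arachidonic acid, had in its intron at +24.4 kb 41.9, 60.6 and 65.5 RPKM in mLN-SPF libraries, against 24.9, 20.6 and 20.6 RPKM in pLN-SPF libraries. It was more accessible in mLN of SPF mice (1.29 ± 0.20, adjusted p = 0.00261), and its other 2 DARs in SPF mice lay at +1178.2 and +1212.8 kb. Hpgd, which inactivates prostaglandins, had at -16.0 kb 26.7, 33.2 and 34.7 RPKM in mLN-SPF libraries, against 13.3, 14.2 and 12.7 RPKM in pLN-SPF libraries. It was also more accessible in mLN (1.17 ± 0.29, adjusted p = 0.0164). The promoters of both genes, named after their values were seen, went the other way. The Pla2g4a promoter held 23.7, 34.9 and 32.1 RPKM in mLN-SPF libraries, against 53.1, 50.7 and 49.9 RPKM in pLN-SPF libraries. The Hpgd promoter held 28.8, 31.7 and 22.2 RPKM in mLN-SPF libraries, against 33.6, 37.8 and 38.9 RPKM in pLN-SPF libraries. Neither promoter was a DAR in either housing, while Hpgd +83.8 kb was a DAR lower in mLN-GF. Abcc4, an exporter that carries prostaglandins out of cells, had in its intron at +70.5 kb 21.1, 28.6 and 19.5 RPKM in mLN-SPF libraries, against 56.9, 52.2 and 48.1 RPKM in pLN-SPF libraries. All 3 Abcc4 DARs in SPF mice were lower in mLN, this one with -1.17 ± 0.19, adjusted p = 0.00306. Slco2a1, the prostaglandin uptake transporter, had in its intron at +25.5 kb 26.1, 32.3 and 11.6 RPKM in mLN-SPF libraries, against 46.3, 50.1 and 38.7 RPKM in pLN-SPF libraries. Its level was lower in mLN of SPF mice (-1.02 ± 0.31, adjusted p = 0.0419) and missed the threshold in GF mice (adjusted p = 0.156). Its peak at -35.4 kb, named after its values were seen, went the other way and was higher in mLN, as a DAR in GF mice (1.27 ± 0.22, adjusted p = 0.00203) and under the 2-fold limit in SPF mice (0.75 ± 0.20, adjusted p = 0.0219).

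The libraries held 2886129 to 10380493 reads in peaks, and the median prostaglandin gene peak held 28 to 85 reads per library. The 2 shallowest were mLN-SPF replicate 3 (2886129 reads) and pLN-SPF replicate 3 (3049830), and the deepest were pLN-SPF replicates 1 and 2 (10380493 and 9328854). Promoter peaks of stromal genes were present at Pdgfra, Pdgfrb and Col1a1 in all groups, and not at Pdpn or Ccl19. Markers of CD34+ SC, which the study counts among the sorted SC, and of other cell types differed by location in part. The promoter of Wt1, a mesothelial gene, had 46.1 to 60.9 RPKM in mLN libraries, against 9.76 to 18.1 RPKM in pLN libraries, and was a DAR, and of the CD34+ SC markers, 2 of 6 with a promoter peak, Dpp4 was a DAR in SPF mice, and the sum of both was 71.0 to 107.9 RPKM in mLN libraries, against 52.8 to 64.9 RPKM in pLN libraries. The 4 perivascular promoters of 6 genes summed to 84.2 to 122 RPKM in mLN libraries, against 137 to 179 RPKM in pLN libraries, and Rgs5 was lower in mLN-GF as a DAR. The 3 of 5 blood endothelial promoters with a peak summed to 71.7 to 99.5 RPKM in mLN libraries, against 56.9 to 79.5 RPKM in pLN libraries. The 2 of 3 lymphatic ones summed to 41.2 to 78.9 RPKM in mLN libraries, against 24.1 to 73.4 RPKM in pLN libraries. Pecam1, Cdh5, Lyve1, Upk3b and Msln had no promoter peak, and neither did any hematopoietic or epithelial gene listed. The part of CD34+ SC or of the other cell types in the differences at prostaglandin genes was not tested.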

How the data were processed

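ATAC-seq libraries of sorted SC were sequenced single-end and, per the study's notes, mapped and counted over peaks called with MACS2. The values used were RPKM per peak, which the authors deposited in 1 table. The authors' notes also name DESeq2 1.22, STAR 2.5.3a, Picard and deepTools. Whether insertion sites were shifted is not given in the sources used here. Fold changes, p-values and gene names of the authors in the table were not used. The table held 42434 entries, of which 42424 were distinct. In every peak, pLN-GF replicate 2 (1 column) had exactly the average of the 5 remaining pLN columns, so it holds no measurement of its own and was left out. Peaks were assigned to the nearest protein-coding TSS of GENCODE vM21 on GRCm38, and 82 peaks lay on contigs without one.

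Differences were tested with limma 3.58.1 in R 4.3.3 on log2(RPKM + 1), with a pseudocount of 1, 1 mean per group over 11 libraries (residual df 7), a variance trend and Benjamini-Hochberg adjustment over all peaks, for 5 comparisons. The p-values are two-sided and the log scale understates changes of low peaks. RPKM values were whole multiples of 1 read within 0.02 in 100% of values, which gave reads and so voom as an alternative. The steps were also run on simulated reads with 200 changed peaks, for the SPF location comparison only. The simulation gave every library the same dispersion, which was not matched to these libraries, and no result here rests on it. The genes and lists were chosen with earlier results of these data known. Named were the peak nearest each TSS and up to 4 called peaks per gene, and other prostanoid genes with a called peak by adjusted p. Motif letters were counted with Python 3.11.15 and pysam 0.24.0. Limits from 0 reads cover counting error only.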

Additional observations from a re-analysis of the deposited data

How the results depend on the processing

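In SPF mice the count of 17 DARs was 11 when peaks beyond 100 kb from a start site were left out, which removes peaks by construction, and 11 without the 2 shallowest libraries, an alternative chosen after seeing the data. Leaving out 1 library gave 8 to 18 in SPF mice and 6 to 20 in GF mice. The counts with a pseudocount of 0.1, a mean of at least 5 RPKM, median-ratio scaling, no variance trend, assignment by gene start (chosen after seeing the data) or without replicate 2 of both mLN groups were again 17 and 18, with only the groups compared 12 and 18, and voom gave 20 and 21 and, in pLN between housings, 1 in place of 0. Equal counts hid some turnover at named peaks: 5 of 17 calls in SPF and 1 of 17 in GF mice were lost without both mLN replicates 2, 2 and 2 with no variance trend, and 5 and 1 with only the groups compared. Of the same-numbered libraries, replicates 2 deviated together between mLN-SPF, mLN-GF and pLN-SPF (correlations of 0.196 to 0.271), as did mLN-SPF and pLN-SPF replicates 3 (0.229). Some others did not (down to -0.152). Differently numbered libraries reached 0.21 (mLN-GF replicate 1 with pLN-SPF replicate 3) and 0.152 (mLN-SPF replicate 1 with pLN-GF replicate 3). Not every same-numbered pair passed 0.1, and the numbers were not taken to pair libraries. A replicate block gave 18 and 21. Of the calls at named peaks, 3 of 17 in SPF mice and 4 of 17 in GF mice were kept under every alternative.

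Among the named peaks, signs turned in comparisons that had no call there: Ptges +0.3 kb in SPF mice (-0.050 without pLN-SPF replicate 2, in a range up to 0.71 over single exclusions), Ptgir -0.4 kb in SPF mice (0.073 without the 2 shallowest libraries and 0.059 without mLN-SPF replicate 3, range from -0.082) and in GF mice (0.0097 without mLN-GF replicate 3 and 0.0077 without pLN-GF replicate 3, range from -0.27), Ptgs1 +0.1 kb in GF mice (-0.17 without pLN-GF replicate 3, range up to 0.82) and Ptger4 -295.5 kb in GF mice (0.033 without mLN-GF replicate 3, range from -0.25). The cause was not tested. Reads per library, from 2886129 to 10380493 in peaks, limit what short and weakly accessible peaks can show.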
